A study of Mus musculus with 15 samples.

Results

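TREM2 is a surface receptor of microglia, the resident macrophages of the brain, and 8 genes that encode the receptor, its adaptors and the proteins closest to it in signalling were followed here: Trem2, Tyrobp, Hcst, Syk, Plcg2, Inpp5d, Vav1 and Btk. They were chosen by name, and all 8 were found among the 32372 genes of the count table and passed the filter on low counts. The cells were single microglia, enriched with CD45 beads from cortex and hippocampus of male hTfR KI mice (C57BL/6J, 3.5 months old), a strain that carries human transferrin receptor sequence. Each of 15 mice was dosed once, at 10 mg/kg. ATV:4D9 is an antibody to TREM2 on a carrier domain that binds the transferrin receptor (the antibody transport vehicle, ATV), and it was given 1, 7, 14 or 28 days before sampling. ATV:RSV, the control antibody on the same carrier, was given 1 day before sampling. Every group held 3 mice, 1 from each of 3 processing batches, and the 3 ATV:RSV mice served as the control of every day, so that day and treatment cannot be told apart after day 1.

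TREM2 binds lipids and lipoproteins and has no signalling motif of its own. It pairs in the membrane with DAP12, the product of Tyrobp, whose tyrosine motif recruits the kinase SYK once Src family kinases have phosphorylated it, and with DAP10, the product of Hcst, which recruits phosphoinositide 3-kinase. SYK and the kinase BTK activate phospholipase C gamma 2 (Plcg2), which releases calcium, VAV1 is an exchange factor, and SHIP1, the lipid phosphatase encoded by Inpp5d, takes apart the product of phosphoinositide 3-kinase and restrains the pathway.

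The genes lie at 8 places in the mouse genome (mm10, GENCODE M21), of which a pair are neighbours. Trem2 is on chromosome 17 from 48346401 to 48354147 on the plus strand, and Vav1 is on the same chromosome from 57279100 to 57328031. Tyrobp (chromosome 7, 30413760 to 30417585, plus strand) and Hcst (30417712 to 30419854, minus strand) converge, with 126 bases between their ends. Syk is on chromosome 13 (52583173 to 52648792), Plcg2 on chromosome 8 (117498291 to 117635142), Inpp5d on chromosome 1 (87620312 to 87720507) and Btk on chromosome X (134542336 to 134583570, minus strand). All 8 are annotated as protein coding. A miRNA gene lies opposite Plcg2 and a pseudogene opposite Btk, and neither is in the count table.

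The stretch of 150 bases before the start site is shown for the receptor and for 3 genes whose level is described below, from RefSeq (GRCm38.p6), 5′ to 3′ on the plus strand. Capitals mark GAGGAAGT, the letters taken for PU.1, a transcription factor that myeloid cells depend on.
Trem2 (chr17:48346251-48346400): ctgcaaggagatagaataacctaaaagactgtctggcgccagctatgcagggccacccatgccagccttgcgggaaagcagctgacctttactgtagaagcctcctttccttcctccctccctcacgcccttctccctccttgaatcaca
Syk (chr13:52583287-52583436): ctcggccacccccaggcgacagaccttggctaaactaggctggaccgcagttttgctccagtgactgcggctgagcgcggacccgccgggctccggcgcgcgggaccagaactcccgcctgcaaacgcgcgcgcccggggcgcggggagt
Inpp5d (chr1:87620162-87620311): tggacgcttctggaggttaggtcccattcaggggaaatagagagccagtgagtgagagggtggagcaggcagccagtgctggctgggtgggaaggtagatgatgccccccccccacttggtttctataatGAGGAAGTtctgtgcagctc
Vav1 (chr17:57278950-57279099): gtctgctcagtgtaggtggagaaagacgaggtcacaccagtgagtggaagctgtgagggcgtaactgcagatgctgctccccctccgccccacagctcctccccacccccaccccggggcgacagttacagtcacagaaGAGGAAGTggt
The search covered 250 bases before to 50 bases after each start site on both strands, for GAGGAAGT, for CCGGAAGT (ETS factors, whose last 6 letters are the same), for TGAGTCA (AP-1) and for TTTGGCGC (E2F). GAGGAAGT began 20 bases before the start of Inpp5d and 11 bases before that of Vav1, and none of the letters occurred in the windows of Trem2, Hcst, Syk, Plcg2 and Btk. Syk had a second start site in the table (window at chr13:52596732-52596881, not shown), which held none of the letters either, and Tyrobp had no window and was not searched. Among all 32851 promoter windows, 3.20% held GAGGAAGT, 3.89% CCGGAAGT, 5.20% TGAGTCA and 0.514% TTTGGCGC. A match of letters is not evidence of binding.

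The files held 102043 cells, 5667 to 7596 per mouse, and UMIs (unique molecular identifiers, each 1 captured mRNA molecule) averaged 5738 to 6613 per cell in ATV:RSV mice, 8877 to 9877 a day after ATV:4D9, and 5707 to 6843 at the later days. Of 100747 barcode sequences, 1283 occurred in more than 1 library. Cells with a UMI of the cell cycle genes Mki67 or Top2a made up 19.6% to 27.4% of the day 1 cells and 0.397% to 0.684% of the control cells. A list of 10 microglia markers summed to between 21180.2 and 22548 CPM (without TMM) in the control mice and to between 14768 and 16316 at day 1. For 5 monocyte markers the sums were 6.34 to 15.4 and 27.8 to 30.9, for 5 oligodendrocyte markers 46.3 to 61.3 and 28.3 to 31.0, for 6 neuron markers 9.74 to 13.3 and 4.90 to 6.70, for 7 B cell markers 236.9 to 287 and 210.4 to 229, and for 10 immediate early genes that dissociation of tissue induces 21319.5 to 23705 and 12482 to 14267. The median percent of mitochondrial UMIs per cell was 3.11% to 3.38% in the control mice and 3.96% to 4.496% at day 1. The ranges of the other 6 lists of cell type markers overlapped. Without the cells that held at least 3 markers of another cell type 6 members were called at day 1 on the share of UMIs described next and 7 on UMIs per cell, the same genes as with all cells. Without the cells that held a Mki67 or Top2a UMI 5 were called on either scale. Trem2 and Vav1 were then not called on either, and Hcst was called in addition on the share of UMIs. The part of the other shifts in the results was not tested.

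The first question was how the level of each gene moved over the 28 days. For each mouse the UMIs of all its cells were added up and scaled by the trimmed mean of M values (TMM) to CPM (UMIs per common library total). This scale is called the share of UMIs below. With the TMM factor it is not a plain share of the mouse's mRNA. At day 1, 6 of the 8 genes differed from ATV:RSV in limma-voom (Benjamini-Hochberg adjusted p under 0.05 over all 14260 genes), against 69.2% of all genes. Tyrobp was higher, where 34.7% of all genes were, and Trem2, Syk, Inpp5d, Vav1 and Btk were lower, where 34.6% of all genes were. The number of members called was therefore near the background, and the sizes and directions of the single genes are what the data give. The median log2 fold change was -0.14 over the members and -0.05 over all genes. No member was called at day 7, when 3.98% of all genes were called, at day 14 (0.400%) or at day 28 (0.00%, with 571 genes at an unadjusted p under 0.05 and 14 called by DESeq2).

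Trem2, the receptor, changed little on the share of UMIs, that is, with TMM scaling. With the library size alone its fall at day 1 was larger, at -0.38 (log2), where the median of all genes was -0.29. The values that follow are with TMM. The 3 control mice had 2519, 2549 and 2800.5 CPM and the 3 day 1 mice 2494, 2265 and 2387 CPM, in the order of the batches. All day 1 mice lay below all control mice, which was so for 35.9% of all genes, and the margin in batch 1 was small. The log2 fold change was -0.14 ± 0.05 (SE; 95% CI -0.24 to -0.04, limma-voom adjusted p = 0.0176). At day 7 the mice had 2605, 2633 and 2605 CPM, at day 14 2499, 2554 and 2579 CPM, and at day 28 2480.2, 2605 and 2661 CPM. These 9 values fell within the range of the control and day 1 mice. The log2 fold changes were -0.0030, -0.04 and -0.02 with intervals of -0.10 to 0.10, -0.14 to 0.06 and -0.12 to 0.08. The day 1 call was lost without the cells that held a Mki67 or Top2a UMI (-0.08, adjusted p = 0.121), without the control mouse of batch 3 (-0.09, 0.104) without the day 1 mouse of batch 2 (-0.10, 0.103) and in a fit of the 6 mice compared (-0.14, 0.0752), and the range over the alternatives was 3.92e-06 to 0.121.

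Tyrobp, the adaptor that carries the TREM2 signal, rose. Its level was 2769.8, 2748 and 2918 CPM in the control mice and 3656, 3439 and 3815 CPM at day 1, every day 1 mouse above every control mouse as in 35.7% of all genes. The log2 fold change was 0.37 ± 0.05 (a rise of 29.2% with TMM, adjusted p = 3.29e-06), and within the batches it was 0.40, 0.32 and 0.39. At day 7 the mice had 3273, 3113 and 3099.7 CPM, again all above the control mice, which held for 11.0% of all genes. That difference was 0.17 ± 0.05 with an adjusted p of 0.0563 in limma-voom, and with the batch as a replicate block the adjusted p was 0.0253, which made Tyrobp the 1 member called at day 7 in that fit. It was also called at day 7 without the day 1 mouse of batch 2 (adjusted p = 0.0467) or 3 (0.0414), which enter through the shared estimate of the spread. In all, Tyrobp was called at day 7 in 5 of 26 alternatives. At days 14 and 28 the ranges, 2818 to 2975 and 2760.3 to 2941 CPM, overlapped that of the control mice.

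Hcst, the second adaptor, was sparse. The control mice had 45.2, 34.5 and 37.8 CPM and the day 1 mice 55.0, 43.2 and 43.9 CPM, so the groups overlapped while each day 1 mouse was above the control mouse of its own batch. The log2 fold change was 0.27 ± 0.12 with an adjusted p of 0.0561 in limma-voom, and 0.27 with an adjusted p of 0.00136 when the batch entered as a replicate block. It was called in 11 of 26 alternatives, among them that without the cells that held a Mki67 or Top2a UMI. Others were those without the control mouse of batch 1 (0.38, adjusted p = 0.0154) or the day 1 mouse of batch 2 (0.34, 0.0356) or 3 (0.32, 0.0453). It was also called without the day 14 mouse of batch 1 (0.0376) or 3 (0.0406) or the day 28 mouse of batch 1 (0.0466). The mice of batch 1 had the highest Hcst level in the control group and at days 1, 7, 14 and 28.

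Syk, the kinase that binds the phosphorylated adaptor, fell most among the members. The control mice had 90.3, 83.1 and 74.8 CPM and the day 1 mice 44.7, 42.1 and 41.6 CPM. The spread between the day 1 mice was small beside the distance to the control mice. The fall was 48.1% (log2 fold change -0.95 ± 0.09, adjusted p = 1.35e-07), with -1.01, -0.98 and -0.85 within the batches. At day 7 the level was 89.8, 79.9 and 73.1 CPM, at day 14 84.6, 85.0 and 69.7 CPM, and at day 28 81.5, 73.3 and 75.9 CPM, each overlapping the control mice.

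Inpp5d, which encodes the inhibitory phosphatase SHIP1, fell as well. Its level was 425, 400.1 and 389 CPM in the control mice and 259.6, 253.7 and 249 CPM at day 1. The day 1 mice lay within a narrow band below all others. The fall was 37.2% (log2 fold change -0.67 ± 0.06, adjusted p = 5.38e-08). At days 7, 14 and 28 the lowest and highest mouse had 359.5 and 409, 365 and 416, and 376.5 and 407 CPM, which overlapped the control range.

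Btk and Vav1 moved less, and Plcg2 did not pass the test. Btk, a Tec family kinase, had 52.5, 48.8 and 50.3 CPM in the control mice and 39.2, 41.1 and 38.2 CPM at day 1, a fall of 21.9% (log2 fold change -0.36 ± 0.05, adjusted p = 5.36e-06). At day 7 it was still below all control mice (10.2% of all genes were) at 45.2, 48.2 and 45.1 CPM, by -0.13 with an adjusted p of 0.151. At days 14 and 28 each mouse was below the control mouse of its own batch, but the fits of -0.07 and -0.07 were not called. The batches also agreed in direction for Inpp5d at day 14 (lower) and for Tyrobp and Hcst at day 28 (higher). How often they do so over all genes was not counted. Vav1, an exchange factor, had 125.7, 128.2 and 122.4 CPM in the control mice and 108.9, 116.2 and 118.2 CPM at day 1 (-0.13 ± 0.04, adjusted p = 0.0114). Its call was lost without the cells that held a Mki67 or Top2a UMI (-0.09, adjusted p = 0.0731) and without the day 1 mouse of batch 1 (-0.09, 0.0875). Plcg2, the phospholipase, had 57.0, 62.9 and 62.1 CPM in the control mice and 57.8, 56.8 and 61.1 CPM at day 1, with a log2 fold change of -0.05 and an interval of -0.16 to 0.06.

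**Figure D1:**
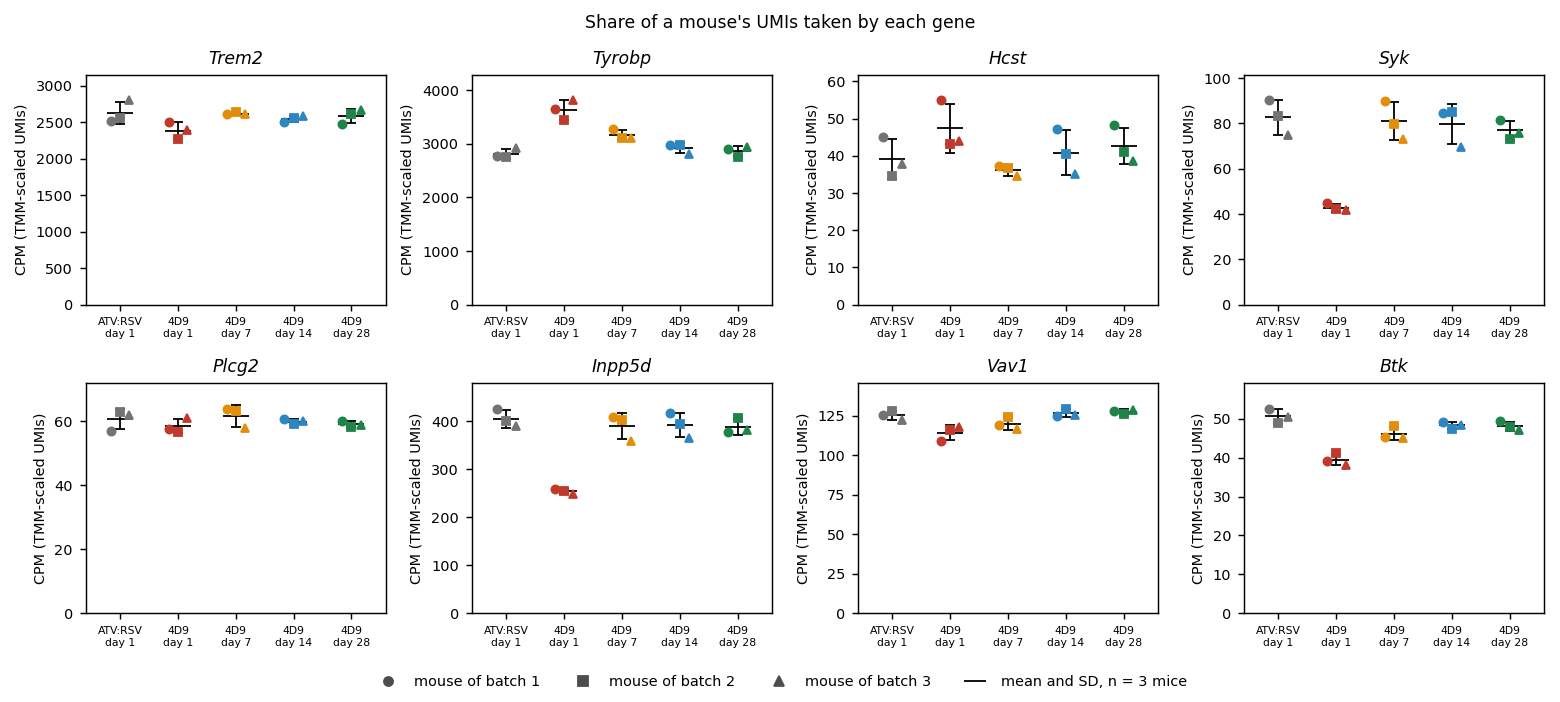
Level of the 8 genes (CPM, UMIs scaled by TMM, linear axes from 0) in each of the 15 mice, grouped by antibody and day, with symbols for the batch and bars for the mean and SD of 3 mice. Syk (41.6 to 44.7 CPM) and Inpp5d (249 to 259.6 CPM) at day 1 of ATV:4D9 sit below every other mouse, Tyrobp at day 1 sits above every other mouse, and Plcg2 is level.

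The scaling matters for these sizes. With the library size alone and no TMM factor, the median of all genes at day 1 was -0.29 and every member moved down by a like amount. Tyrobp then rose by 0.13 (adjusted p = 0.00862), Trem2 was at -0.38, Plcg2 was called at -0.29 (adjusted p = 6.90e-05) and Hcst was at 0.03, while the calls for Syk (-1.19), Inpp5d (-0.91), Btk (-0.60) and Vav1 (-0.37) stayed on the same side. The split of all calls moved from 50.06% to 34.65% higher. On the unscaled share the median cell of the control mice held 26.1, 26.7 and 29.3 Trem2 UMIs per 10000 UMIs, and that of the day 1 mice 22.6, 20.1 and 20.6. The 90th percentile over cells was 41.0 to 44.5 in the control mice and 31.2 to 35.0 at day 1, so the upper end of the distribution lay lower as well. For Tyrobp the medians were 28.4, 28.3 and 30.1 in the control mice and 31.8, 29.9 and 32.4 at day 1, and these overlapped.

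A second scale asks how many molecules of a gene were counted per cell, without dividing by the cell's other mRNA. Cells at day 1 held more UMIs, and whether they held more mRNA or were captured or sequenced more deeply cannot be told apart. On this scale the median of all genes rose by 0.32 at day 1. There, 7 members were called, against 62.7% of all genes, 5 of them higher (49.3% of all genes) and 2 lower (13.4%). No member was called at day 7 (2.16% of all genes), day 14 (0.00%, with 478 genes at an unadjusted p under 0.05) or day 28 (0.00%, with 483).

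Tyrobp rose from 19.3, 16.8 and 18.9 UMIs per cell in the control mice to 32.7, 28.7 and 29.7 at day 1, which is 0.73 ± 0.08 on the log2 scale (adjusted p = 1.52e-07) and above the median of all genes. Hcst rose from 0.315, 0.210 and 0.244 to 0.492, 0.361 and 0.342 UMIs per cell (0.64 ± 0.16, adjusted p = 0.00143). For both adaptors every day 1 mouse was above every control mouse, as it was in 49.4% of all genes.

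Trem2 went from 17.6, 15.6 and 18.1 to 22.3, 18.9 and 18.6 UMIs per cell, so that the direction of its change was opposite on the 2 scales. Its log2 fold change of 0.22 ± 0.08 (adjusted p = 0.0282) was below the median of all genes, and it was not called without the cells that held a Mki67 or Top2a UMI (0.16, adjusted p = 0.128), without the control mouse of batch 2 (0.16, 0.146) or without the day 1 mouse of batch 1 (0.14, 0.178). Vav1 turned in the same way, from 0.876, 0.782 and 0.791 to 0.974, 0.969 and 0.922 UMIs per cell (0.23 ± 0.07, adjusted p = 0.0111, and 0.15 with 0.105 without those cycling cells). Plcg2 rose from 0.398, 0.384 and 0.401 to 0.517, 0.474 and 0.476 UMIs per cell (0.31 ± 0.07, adjusted p = 0.00112), about as much as the median gene.

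Syk and Inpp5d were lower on both scales. Syk fell from 0.629, 0.507 and 0.483 to 0.400, 0.351 and 0.324 UMIs per cell (-0.59 ± 0.11, adjusted p = 0.000173). Inpp5d fell from 2.97, 2.44 and 2.52 to 2.32, 2.12 and 1.94 UMIs per cell (-0.31 ± 0.09, adjusted p = 0.00728), a call that was lost without the control mouse of batch 1 (-0.22, 0.0523) and without the 5% deepest cells of each mouse (-0.24, 0.0506). In both genes every day 1 mouse was below every control mouse, which was so for 14.7% of all genes. Btk had 0.366, 0.298 and 0.325 UMIs per cell in the control mice and 0.350, 0.343 and 0.297 at day 1, a log2 fold change of 0.01 with an interval of -0.19 to 0.20.

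**Figure D2:**
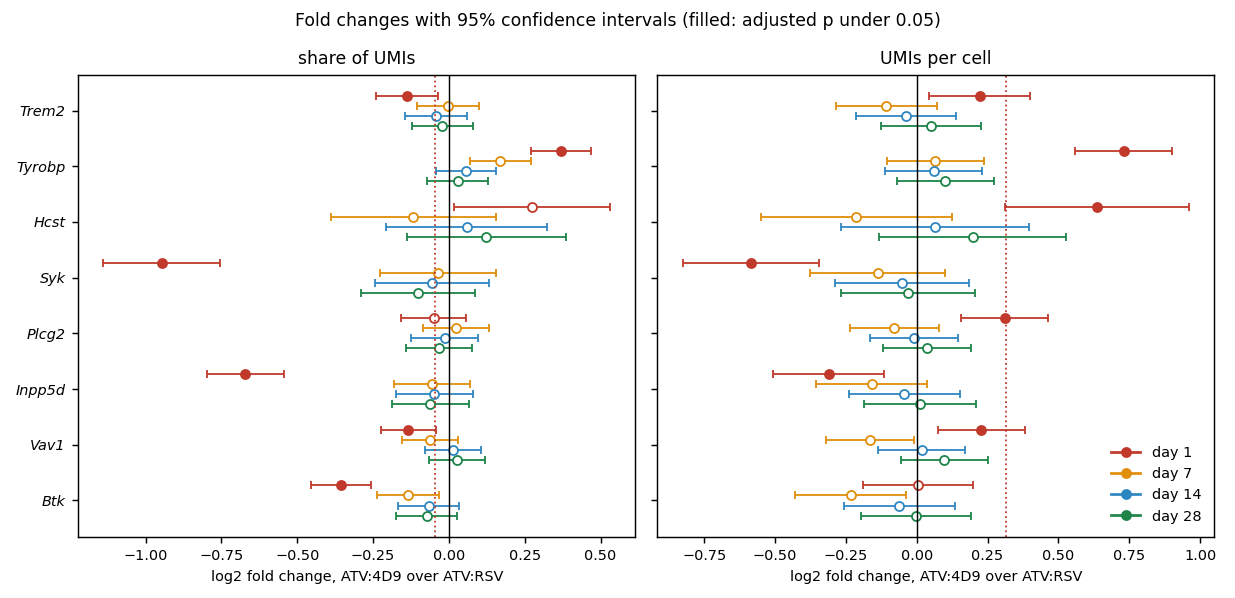
Log2 fold changes of ATV:4D9 over ATV:RSV for the 8 genes on the 2 scales, with 95% confidence intervals from limma-voom, 1 colour per day. Filled points have an adjusted p under 0.05, and the dotted line is the median of all genes at day 1 (-0.05 for the share of UMIs, 0.32 for UMIs per cell). All filled points belong to day 1, where Syk and Inpp5d lie left of 0 in both panels and Tyrobp right of 0 in both.

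The change from day 1 to day 7 was tested directly, by comparing day 7 with day 1 of ATV:4D9 on the share of UMIs. The level of the control mice does not enter this difference, so it does not test a return to that level. Of the 8 members 6 were called, against 66.9% of all genes. Syk was higher at day 7 than at day 1 by 0.91 ± 0.09 on the log2 scale (adjusted p = 2.52e-07), Inpp5d by 0.62 ± 0.06 (1.71e-07), Btk by 0.22 ± 0.05 (0.000686) and Trem2 by 0.14 ± 0.05 (0.0205). Tyrobp was lower by -0.20 ± 0.05 (adjusted p = 0.00130) and Hcst by -0.39 ± 0.12 (0.0112). Plcg2 (0.07) and Vav1 (0.07) were not called. Scaling by the library size alone ended the calls of Tyrobp (-0.06) and Hcst (-0.25) and added calls of Plcg2 (0.22) and Vav1 (0.22), and without the cells that held a Mki67 or Top2a UMI Trem2 was at 0.08 (adjusted p = 0.151). The Trem2 call was also lost without the day 1 mouse of batch 2 (0.09, adjusted p = 0.124) or the day 7 mouse of batch 2 (0.13, 0.0535) and without the filter on low counts (0.10, 0.0659), and that of Hcst without the day 1 mouse of batch 1 (-0.29, 0.0572).

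Counted as UMIs per cell, day 7 differed from day 1 in another way. The median of all genes was -0.44, 63.2% of all genes were called, and 7 members were called, 6 of them lower at day 7 and Syk higher. Trem2 (-0.33 ± 0.08, limma-voom adjusted p = 0.00207) and Btk (-0.24 ± 0.09, 0.0330) were lower at day 7 on this scale and higher on the share of UMIs, so that their direction turned with the scale. The Btk groups overlapped, and its call was lost without the day 1 mouse of batch 1 (adjusted p = 0.121) or 2 (0.106), the day 7 mouse of batch 1 (0.116) or 2 (0.0828), the cells that held a Mki67 or Top2a UMI (0.169) or the filter on low counts (0.0543). Syk was higher on both scales (0.45 ± 0.12 per cell, adjusted p = 0.00210), and Tyrobp (-0.67) and Hcst (-0.85) were lower on both. Plcg2 and Vav1 were each at -0.39, near the median gene. Inpp5d was at 0.15 with an adjusted p of 0.171 and was called without the cells that held a Mki67 or Top2a UMI (0.25, adjusted p = 0.0335).

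Ratios of 2 members within a mouse do not depend on the scaling or on the number of cells, and were used to compare the balance of the genes between mice. A ratio between 2 genes is not a ratio of proteins, and only its change is read. The ratio of Trem2 to Tyrobp UMIs was 0.932 ± 0.0255 (SD, n = 3) in the control mice, 0.656 ± 0.0285 at day 1, 0.827 ± 0.0274 at day 7, 0.871 ± 0.0390 at day 14 and 0.901 ± 0.0451 at day 28. The mice of days 1 and 7 lay below all control mice, those of days 14 and 28 overlapped them, and the means rose with the day. Shuffling the 5 group labels inside each batch (exact permutation test, two-sided) gave p = 0.000486 over all 5 groups together. The exact permutation test of 3 mice against 3 gave p = 0.1 for days 1 and 7, the smallest it allows. In the same mice Trem2 was called lower and Tyrobp higher at day 1 on the share of UMIs, so these p-values are no separate support for those calls. Neighbouring days were not tested against each other. In this ratio the difference at day 1 was -0.51 and at day 7 -0.17 on the log2 scale.

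The ratio of Hcst to Tyrobp UMIs was 0.0139 ± 0.00206 (SD, n = 3) in the control mice and 0.0130 ± 0.00181 at day 1, and these overlapped. At day 7 it was 0.0114 ± 0.000327, below all control mice, and at days 14 and 28 it was 0.0140 ± 0.00172 and 0.0149 ± 0.00171 (exact permutation test inside batches, p = 0.00153).

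Because Syk fell most among the members, the ratios of the other signalling genes to it had to be higher at day 1, and these 4 ratios share that denominator and are given as a description, with no test. The ratio of Plcg2 to Syk UMIs was 0.740 ± 0.101 (SD, n = 3) in the control mice and 1.37 ± 0.0896 at day 1, a log2 difference of 0.90. Vav1 to Syk went from 1.52 ± 0.124 to 2.68 ± 0.216 (0.81), Btk to Syk from 0.614 ± 0.0511 to 0.923 ± 0.0510 (0.59) and Inpp5d to Syk from 4.91 ± 0.262 to 5.94 ± 0.121 (0.28). In each of these 4 ratios the day 1 mice lay above all control mice, and the mice of days 7, 14 and 28 overlapped the control mice. In all, 6 ratios were computed, and the tests of the ratios to Tyrobp were over all 5 groups together.

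**Figure D3:**
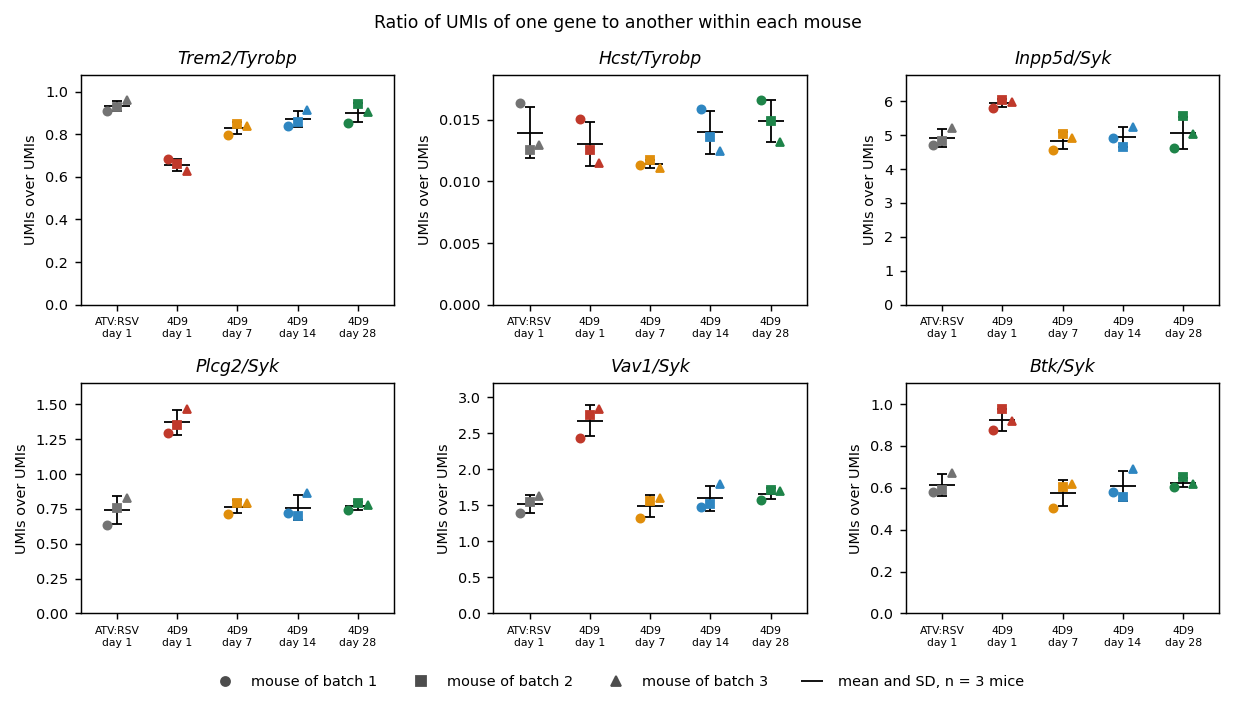
Ratio of the UMIs of 2 genes within each of the 15 mice for 6 pairs (linear axes from 0), with symbols for the batch and bars for the mean and SD of 3 mice. Trem2/Tyrobp is lowest at day 1 (0.656) and rises over the later days to 0.901, and the 4 ratios to Syk are high at day 1 only.

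The share of cells in which a gene was found was compared after thinning every cell to 3385 UMIs, since deeper cells show a gene more often. These shares carry no TMM factor, and on the share of UMIs without it the median gene was at -0.29 (log2) at day 1 and -0.10 at day 7, against which a fall in them is to be read. In the same cells, genes of other cell types, which microglia should lack, were found in a median of 0.0145% to 1.39% of cells per list, with single genes as high as 48.2% (Ighm). The members other than Trem2 and Tyrobp were found in 10.9% or more on average. The exact p-values inside batches that go with these shares are over all 5 groups together and do not test 1 day against the control mice. Syk was found in 25.1% ± 2.09 of cells (SD, n = 3) in the control mice and in 12.6% ± 0.869 at day 1 (exact permutation test inside batches over the 5 groups, p = 0.0114). Inpp5d was found in 74.6% ± 1.42 and 53.7% ± 1.69 of cells (exact p over the 5 groups = 0.00264). The exact permutation test of 3 mice against 3 gave p = 0.1 for both genes at day 1, the smallest it allows. For both the groups did not overlap at day 1, and Inpp5d was also below the control mice at day 7, at 70.4% ± 1.14. How many of all genes lay so on this measure was not counted. With TMM Inpp5d was at -0.06 at day 7 (limma-voom adjusted p = 0.697), and without thinning its day 7 mice overlapped the control mice. No fall of Inpp5d at day 7 is therefore read from this share.

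Vav1 and Btk were also found in fewer cells at day 1. Vav1 was found in 36.3% ± 0.660 of the control cells (SD, n = 3) and in 29.6% ± 0.826, 32.8% ± 0.764, 35.4% ± 0.724 and 36.3% ± 0.326 at days 1, 7, 14 and 28 (exact permutation test inside batches, p = 0.000764). Btk was found in 16.4% ± 0.614 of the control cells and in 11.5% ± 0.545, 14.1% ± 0.314, 15.1% ± 0.304 and 15.6% ± 0.707 (exact p = 0.000417), and the mice of days 1, 7 and 14 were all below the control mice. The means of both genes rose from day 1 to day 28, as did those of Syk, Inpp5d and Plcg2. Neighbouring days were not tested against each other. Without TMM Vav1 was at -0.37 at day 1, where the median gene was lower too, as given above. With TMM it was at -0.06 at day 7 (limma-voom adjusted p = 0.513), so no fall of Vav1 at day 7 is read from this share. With TMM Btk was at -0.13 at day 7 and -0.07 at day 14, neither called. Without thinning its mice overlapped the control mice on both days, so no fall of Btk at days 7 and 14 is read from this share either. How many of all genes lay below the control mice on this measure was not counted.

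Plcg2 was found in 19.4% ± 0.890 of control cells and 16.3% ± 0.331 of day 1 cells (SD, n = 3, exact permutation test inside batches over the 5 groups, p = 0.00799). Its log2 fold change without TMM, -0.29, was that of the median gene, and with TMM it was -0.05 and not called, so no fall of Plcg2 beyond that of the median gene is read from this share. Hcst was found in 12.7% ± 1.64 and 13.2% ± 1.74, which overlapped, and in 10.9% ± 0.460 at day 7 (exact p over the 5 groups = 0.0237). Trem2 and Tyrobp were found in over 99% of cells in every mouse and leave no room for this measure. Without thinning the direction turned for 3 genes at day 1: Plcg2 from 30.9% to 36.7%, Vav1 from 52.3% to 57.7% and Btk from 26.7% to 27.2% of cells, with deeper cells at day 1.

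**Figure D4:**
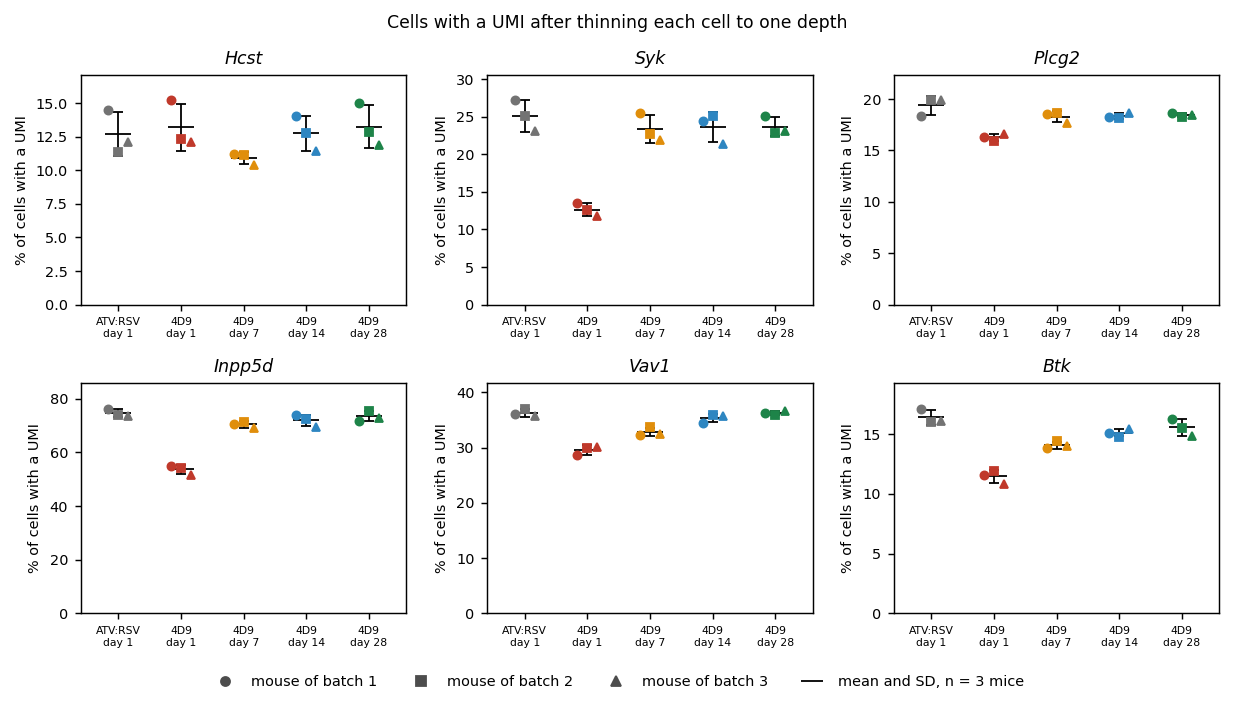
Percent of cells with a UMI of Hcst, Syk, Plcg2, Inpp5d, Vav1 and Btk in each mouse after thinning to 3385 UMIs (linear axes from 0), with symbols for the batch and bars for the mean and SD of 3 mice. Syk falls from 25.1% to 12.6% and Inpp5d from 74.6% to 53.7% at day 1, and the means of Syk, Plcg2, Inpp5d, Vav1 and Btk rise from day 1 to day 28.

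The authors sorted the cells into clusters 0, 1 and 2. Cluster 2 held 87.3% to 93.5% of the day 1 cells of ATV:4D9 and 1.12% to 3.23% of the cells of the other mice, so most of the day 1 cells and most of the control cells were in different clusters. The clusters were made from the same counts, and the levels within them are given as a description, in UMIs per 10000 UMIs without TMM scaling. Per mouse a cluster had 74 to 6597 cells.

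Within cluster 2, Syk was at 0.602 ± 0.0580 (SD, n = 3) in the control mice and 0.366 ± 0.0116 at day 1, and Inpp5d at 2.93 ± 0.274 and 2.19 ± 0.050. Trem2 was at 26.5 ± 3.74 and 21.1 ± 0.976, Btk at 0.476 ± 0.113 and 0.345 ± 0.0145 and Vav1 at 1.16 ± 0.0739 and 1.01 ± 0.0401. In these 5 genes every day 1 mouse was below every control mouse, which was so for 22.5% of all genes. Tyrobp was at 34.4 ± 4.70 and 32.6 ± 1.30, Hcst at 0.442 ± 0.0604 and 0.422 ± 0.0628 and Plcg2 at 0.560 ± 0.106 and 0.519 ± 0.0133, and these overlapped. The mean of Tyrobp was thus not higher at day 1 among cluster 2 cells, where it was over all cells. The few cluster 2 cells of the control mice had a higher mean of Tyrobp than their cluster 0 cells (28.0 ± 0.439). Their cluster 1 cells, at 33.3 ± 1.63, were close to those of cluster 2. The control mice had 76 to 165 cells in cluster 2 and the day 1 mice 5607 to 6597.

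In the control mice the means of Syk and Inpp5d were lower in cluster 2 than in cluster 0, where they were 0.880 ± 0.0806 for Syk (SD, n = 3) and 4.23 ± 0.156 for Inpp5d. In cluster 0 at day 1 Syk was at 0.665 ± 0.0824 and Inpp5d at 3.55 ± 0.134, so that 2 members were below all control mice, against 18.8% of all genes. In cluster 1 Vav1 alone was below them, at 1.10 ± 0.0876 against 1.29 ± 0.0485 (15.4% of all genes), and Syk was at 0.796 ± 0.0210 against 0.888 ± 0.0908. The day 1 cells left in clusters 0 and 1 numbered 211 to 383 and 180 to 555 per mouse, and their mean depth was 5463 and 3792 UMIs against 7411 and 4377 in the control mice.

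**Figure D5:**
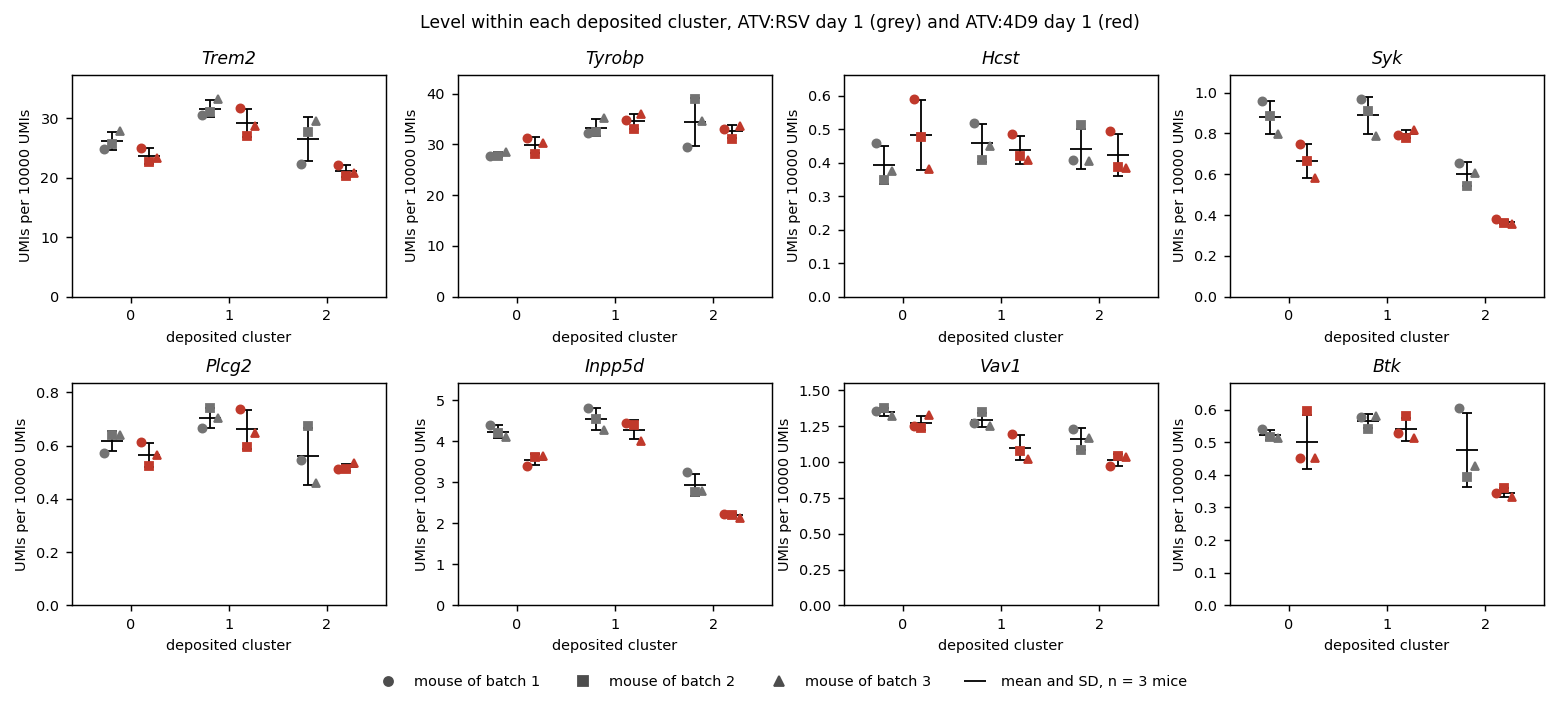
Level of the 8 genes within clusters 0, 1 and 2 (UMIs per 10000 UMIs, linear axes from 0) in the 3 ATV:RSV day 1 mice (grey) and the 3 ATV:4D9 day 1 mice (red), with symbols for the batch and bars for the mean and SD. In cluster 2, Syk (0.366 against 0.602) and Inpp5d (2.19 against 2.93) are lower at day 1 and Tyrobp overlaps.

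The wider pathway was read from a list of 97 further genes of TREM2, DAP12 and DAP10 signalling, of which 88 could be tested. At day 1, on the share of UMIs, 27 were higher, 40 were lower and 21 were not called, with a median log2 fold change of -0.20 against -0.05 over all genes, of which 34.7% were higher and 34.6% lower. On UMIs per cell 41 were higher and 22 lower, with a median of 0.16 against 0.32, and of all genes 49.3% were higher and 13.4% lower. The balance of higher and lower calls thus depends on the scale. The lists below are counted on both, and their day 1 counts are to be read against these shares of all genes. At day 7, 2 genes were higher and 2 lower on the share of UMIs, where 3.98% of all genes were called. On UMIs per cell 2 were higher and 1 lower, where 2.16% of all genes were called. At day 14 1 was higher on the share of UMIs (0.400% of all genes were called) and 0 were called on UMIs per cell (0.00%). At day 28 limma-voom called none on either scale (0.00% of all genes on both).

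Receptors were split. In the TREM family 3 of 4 tested genes were higher and none lower at day 1 on both scales. Of 6 other receptors that couple to DAP12 or DAP10 4 were higher and 2 lower on the share of UMIs, and 4 were higher and 1 lower on UMIs per cell. Trem3, Treml4 and Pilrb1 reached the level of the filter on low counts (0.215 CPM) in the 3 day 1 mice and in 0 of the other mice, so the filter fixed their direction and their calls carry no weight in these counts. Their group means went from 0.0388 to 0.404 CPM, from 0.0978 to 0.371 CPM and from 0.0627 to 0.776 CPM. Pilrb2 (0.155 to 1.52 CPM) and Cd300ld (0.828 to 1.50 CPM) were also near the limit of detection. Clec5a, which couples to both adaptors and was picked after its values were seen, was well detected and rose from 95.2 ± 3.92 to 149 ± 7.24 CPM (SD, n = 3; 0.64 ± 0.05, limma-voom adjusted p = 1.54e-08), and it was called in 26 of 26 alternatives. Siglech, a receptor that signals through DAP12 and is abundant in microglia, was at 1166 ± 32.5 CPM (SD, n = 3) in the control mice and 596 ± 24.4 at day 1 (log2 fold change -0.97 ± 0.04, limma-voom adjusted p = 3.08e-11), and it was still lower at day 7 at 993 ± 6.32 CPM (-0.23, adjusted p = 0.00623). On UMIs per cell its day 7 difference was -0.34 with a limma-voom adjusted p of 0.0507, which did not pass. Treml2, of the TREM family, rose at day 1 to 10.3 ± 0.808 CPM and was higher at day 7 (13.6 ± 0.930 against 7.23 ± 0.603 CPM, 0.90, adjusted p = 4.34e-05) and day 14 (0.61, 0.0112). Its day 14 call was lost without the control mouse of batch 1 (adjusted p = 0.0626) or 3 (0.0905), or the day 14 mouse of batch 1 (0.0935) or 3 (0.0510), and in a fit of the 6 mice compared (0.151), and on UMIs per cell the day 14 difference of 0.61 was not called (0.109).

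Src family kinases act at the adaptor's tyrosine motif, and scaffolds collect the enzymes behind it. Of 7 Src family kinases 2 were higher and 2 lower on the share of UMIs, and 3 were higher and 0 lower on UMIs per cell. Fgr rose from 1.74 ± 0.145 CPM (SD, n = 3) in the control mice to 7.26 ± 0.317 at day 1 (2.07 ± 0.13, adjusted p = 7.22e-10) and was at 3.56 ± 0.362 at day 7 (1.03, 0.000326). Of 14 scaffold and adaptor proteins 3 were higher and 7 lower on the share of UMIs, and 6 were higher and 4 lower on UMIs per cell (median -0.09). Lat2, a membrane scaffold that TREM2 signalling uses, rose from 97.0 ± 13.1 to 241 ± 26.6 CPM (1.32 ± 0.10, adjusted p = 6.87e-09), and Dok2, an adaptor that restrains RAS signalling, from 0.351 ± 0.0822 to 5.89 ± 1.95 CPM (3.95 ± 0.39, 1.92e-07). Dok3, its relative, fell from 28.1 ± 1.07 to 10.4 ± 0.818 CPM (-1.43 ± 0.07, adjusted p = 5.84e-11) and was at 19.9 ± 0.938 CPM at day 7 (-0.49, 0.000319). So Dok2, which was near the limit of detection in the control mice, and Dok3 moved in opposite directions at day 1 on this scale. Dok1, of the same family, went from 64.7 ± 3.30 to 42.5 ± 1.66 CPM, in the direction of Dok3.

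Among genes behind SYK and PLCG2, lower levels were the more frequent call at day 1 on the share of UMIs. In the list of phospholipase C, calcium and protein kinase C genes 11 of 16 were lower and 2 higher, with a median log2 fold change of -0.46. Among them Prkca, a protein kinase C, fell from 69.0 ± 4.51 to 27.4 ± 1.45 CPM (SD, n = 3; -1.33 ± 0.07, adjusted p = 1.20e-10) and Nfatc1, a transcription factor that calcium activates, from 53.4 ± 1.98 to 28.9 ± 1.80 CPM (-0.89 ± 0.07, 1.04e-08). On UMIs per cell 7 of these 16 were lower and 4 higher, with a median of -0.10 where all genes had 0.32. Of 9 genes of phosphoinositide 3-kinase and lipid phosphatases 6 were lower and 1 higher on the share of UMIs, and 5 were lower and 3 higher on UMIs per cell (median -0.24). Of 11 genes of AKT and mTOR 6 were lower and 3 higher on the share of UMIs, but 1 was lower and 5 higher on UMIs per cell (median 0.16), so that the majority turned with the scale.

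The remaining lists gave no such majority or were small. In the RAS and MAP kinase list 4 of 9 were lower and 3 higher on the share of UMIs, and 2 were lower and 5 higher on UMIs per cell (median 0.40). The exchange factor Rasgrp4 went from 2.92 ± 0.215 to 1.04 ± 0.171 CPM (SD, n = 3; -1.52 ± 0.21, adjusted p = 7.57e-06). Rasgrp1 (0.468 to 0.266 CPM) and the receptor Cd300lb (0.342 to 0.162 CPM) were also called lower, and these calls held in 19 of 26 and 13 of 24 alternatives. Of 5 tyrosine phosphatases 2 were higher and 1 lower on the share of UMIs, and 4 were higher and 1 lower on UMIs per cell. The gene lower on the share of UMIs, Ptpn22, which dampens antigen receptor signalling in lymphocytes, fell from 2.82 ± 0.164 to 0.528 ± 0.0915 CPM (-2.39 ± 0.22, adjusted p = 1.00e-07). Of the Tec family apart from Btk, neither Tec nor Txk was called on either scale.

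The genes whose fold changes over the 4 days lay nearest to those of 3 members were looked up among 7773 genes with a mean of at least 10 CPM, by the Euclidean distance of the 4 log2 fold changes on the share of UMIs. For Trem2 they were Zfp277 (distance 0.0104), Tmem185b (0.0227) and Mgrn1 (0.0265). For Tyrobp they were mt-Nd4 (0.0208), Myh9 (0.0250) and Yeats2 (0.0407), and those for Syk included Leng9 (0.0478) and Gimap6 (0.0591). Leng9, for example, was at -0.99 at day 1 and at -0.04, -0.07 and -0.10 at the later days.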

How the data were processed

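Single-cell libraries with UMIs were made with a 3′ kit from CD45 bead-enriched cells of 15 mice. The submitters' processing notes name Cell Ranger 4.0.0 and mm10, whereas the study's methods name later versions of Cell Ranger. Versions differ in whether intronic reads are counted by default, and which one made these counts is not settled here. The authors deposited raw UMI counts for every gene in every cell, and a table with the UMI counts, the percent of mitochondrial UMIs, the mouse and the cluster that they had assigned in Seurat. Sums of the matrix equalled the deposited UMIs in all 102043 cells, which held 667 to 24995 UMIs each. No doublet caller was run here, and whether doublets were removed before deposit is not given in the sources used here. 1508 cells (1.48%) held at least 3 markers of another cell type, 777 of them B cell markers. A further control animal in the labels was not analysed here.

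The 8 members, the gene lists and the tests were chosen with earlier results of these data known. Counts were added up per mouse. filterByExpr (edgeR 4.0.16, count of at least 10 and total of at least 15) left 14260 genes. After TMM scaling, limma-voom (version 3.58.1 under R 4.3.3) was run as 1 model of 5 group means. For UMIs per cell the library size was replaced by the number of cells. Genes with a Benjamini-Hochberg adjusted p under 0.05 were called. Values with ± are SDs over 3 mice, or SEs beside a fold change. Each library is 1 mouse, and p-values measure the spread between mice. Ratios to Tyrobp and thinned shares (Python 3.11.15) were tested by exact two-sided permutation of group labels inside batches, with 14400 arrangements and a smallest p of 6.9e-05. Where 1 group alone stands apart, 0.04 of the arrangements line it up in all 3 batches. Thinning to 3385 UMIs, the 10th percentile, left out 10204 shallower cells, and shares are expected values without a random draw. The cells left out were 8.69% to 17.8% of a control mouse's cells and 3.93% to 5.79% of a day 1 mouse's cells. The fits were tested on simulated data.

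The labels state that every batch holds all 5 conditions, so batch numbers pair the mice. For deviations from the group mean, r averaged 0.104 between mice of the same batch (30 pairs, -0.216 to 0.367) and -0.0521 between mice of different batches (60 pairs). Libraries of a group differed from each other by more than sampling noise.

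The text names the 8 members, of the pathway list the 8 highest and 8 lowest called genes at day 1 and up to 4 in each direction at later days, and the 3 nearest profiles of Trem2, Tyrobp and Syk, of which 1 is not reported here, as is 1 list of the pathway. Other marker genes appear as sums of lists, and Ighm, Clec5a and Dok1 were named after their values were seen. The test of day 7 against day 1 on UMIs per cell, and the shares of all genes without overlap in a cluster under the alternatives, were also added after the data were seen. Positions are 1-based (GENCODE M21). Promoters (RefSeq, GRCm38.p6) matched 7 members. Alternatives were other scalings, no filter, a batch block, other tests (DESeq2 1.42.0, edgeR), thinned counts, fewer cells and leaving out each mouse.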

Additional observations from a re-analysis of the deposited data

Results flagged for a closer look

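The change of 6 genes at day 7 of ATV:4D9 differed from that at day 1 in a direct test of the difference (limma-voom, share of UMIs, both against the same 3 ATV:RSV mice). The log2 fold change at day 7 minus that at day 1 was 0.91 for Syk, 0.62 for Inpp5d, 0.22 for Btk and 0.14 for Trem2, and it was -0.20 for Tyrobp and -0.39 for Hcst. In the same test 66.9% of all genes were called. On UMIs per cell, Trem2 (-0.33) and Btk (-0.24) were called in the other direction, lower at day 7 than at day 1, and Inpp5d was at 0.15 and was not called. Groups of 3 mice are too small for a test of single outlying mice, and none was made.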

How the results depend on the processing

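Precision was limited by 3 mice per group: exact tests of 3 against 3 mice cannot go below 0.1. The number of members called stayed between 5 and 7 at day 1 on the share of UMIs, between 5 and 7 on UMIs per cell, and between 5 and 6 for day 7 against day 1 (share of UMIs, and 6 to 7 on UMIs per cell). Of all genes 43.8% to 74.7%, 39.6% to 65.1%, 42.4% to 69.7% and 40.1% to 65.6% were then called, each time the lowest without the filter on low counts, where 22851 genes were tested. At day 7, where none was called, 2 were called with the library size alone (8.41% of all genes, against 3.98%), 1 each without the filter on low counts (2.08%), with the replicate block, paired by batch (7.11%), and with the DESeq2 test (6.11%), and 0 to 1 when single mice were left out (2.28% to 4.23%). Besides Tyrobp at day 7 and Hcst at day 1, the replicate block changed no call of a member or named gene.

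When 1 batch was left out, the day 1 difference in the ratios kept its direction, with -0.14 to -0.057 for Hcst/Tyrobp, 0.25 to 0.31 for Inpp5d/Syk, 0.83 to 0.93 for Plcg2/Syk, 0.80 to 0.82 for Vav1/Syk and 0.52 to 0.66 for Btk/Syk. Hcst/Tyrobp lost its exact p under 0.05 without batch 1 or 3, where 120 arrangements are left and 0.2 of them line up 1 group. Trem2/Tyrobp kept it without any 1 batch (-0.56 to -0.45). Of the thinned shares 7 had an exact p under 0.05, Trem2 among them although it was found in over 99% of cells in every mouse, and 2 to 4 without 1 batch. The same test was not run over all genes.

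Without thinning, the day 1 difference in the share of cells turned to 5.84 points for Plcg2, 5.43 for Vav1 and 0.483 for Btk. Counting UMIs per cell, 6 members were without overlap in cluster 0, 0 in cluster 1 and 2 in cluster 2, in place of 2, 1 and 5. Of all genes 54.6%, 21.5% and 39% were then without overlap, and the cells of the groups differed in depth. With 1 batch left out, 2 mice against 2, the counts were 4 to 5 in cluster 0, 2 to 4 in cluster 1 and 5 to 7 in cluster 2, where 47.8% to 51.9%, 46.4% to 50.8% and 60.6% to 62.7% of all genes were without overlap. Nothing is read from these counts.

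Values near 0 changed sign. The Trem2 share at day 7 was at 0.0040 with DESeq2 size factors and 0.0022 with the DESeq2 test, and at -0.031 to 0.045 when single mice were left out. At days 14 and 28 it was then at -0.071 to 0.0055 and -0.050 to 0.026. Btk UMIs per cell at day 1 were at -0.081 without cells with a Mki67 or Top2a UMI, and at -0.065 to 0.084 when single mice were left out.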
